A study of Mus musculus with 8 samples.

Results

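Genes for 9 amino acid transporters were examined in regulatory T cells (Tregs) and conventional CD4+ T cells (Tconvs) from mice in which dendritic cells constantly display CD70. They are Slc1a5, Slc38a1, Slc38a2, Slc7a1, Slc7a5, Slc7a6, Slc7a10, Slc7a11 and Slc3a2, chosen by name with the values of all 8 libraries already known. All 9 were found among the 52636 rows of the table, and 8 of them were among the 12816 genes with enough signal to test. Because the list was chosen on these values, the p-values below place each gene among all genes tested and are no independent evidence.

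A T cell that is activated must import amino acids to make protein, nucleotides and polyamines, and the carriers in its membrane set how fast it can do so. Slc7a5, Slc7a6, Slc7a10 and Slc7a11 are light chains that reach the cell surface only when bound to a heavy chain, for which Slc3a2 (CD98, 4F2hc) is the usual partner. Slc7a1, Slc1a5, Slc38a1 and Slc38a2 work without it. Imported leucine and arginine are sensed by the kinase complex mTORC1, whereas a lack of amino acids raises the transcription factor ATF4, for which several of these carriers are known targets.

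RNA was taken from splenic CD4+ Foxp3- cells (Tconvs) and CD4+ Foxp3+ cells (Tregs). They were sorted from Foxp3 reporter mice that, by the study's methods, were 6 to 8 weeks old. Before sorting, by the same methods, NK cells, granulocytes, B cells, dendritic cells, macrophages and CD8+ cells were depleted with antibodies and magnetic beads. An antibody against CD25 was included for Tconvs but not for Tregs. Handling thus differed between the subsets, and its part in their differences was not tested. Control mice were CD27+/-, and transgenic mice were CD11c-Cd70tg;CD27+/-, named CD70Tg here. The controls thus also carry only a single intact copy of Cd27, the gene for the receptor of CD70. The CD11c promoter, used to drive CD70 in dendritic cells, is carried in the germline and so is present in the T cells too. Cd70 itself was 4 and 3 in control and 15 and 28 in CD70Tg Tconvs, and 0 and 9 in control and 11 and 44 in CD70Tg Tregs, where the 44 alone is above the value worth 3 reads in its library. Each of the 4 groups had 2 libraries, and nothing in the labels says that the libraries of a group came from separate mice. The p-values thus measure the spread between libraries, which may be technical. Groups of 2 libraries can lie apart without any effect, and the share of all genes that do so was not counted. Statements below that groups did or did not overlap are therefore descriptions only.

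Values are reads per gene scaled to 20 M reads per library. The depth behind them was uneven, with 6.94 to 33.31 M reads on genes in the Tconv libraries and 1.91 to 4.57 M in the Treg libraries. The value worth 3 reads, taken as the lowest that can be told from 0 by counting alone, was 1.8 to 8.6 in Tconv libraries and 13.1 to 31.3 in Treg libraries. Foxp3 was 19769 to 21367 in Tregs and 1039 to 1497 in Tconvs, so the sorted populations matched their labels. Cd4, Cd3d, Cd3e and the other T cell markers were detected in every library. Summed levels of some marker lists for other cells were higher with the transgene, and their part in the results below was not tested. The 6 erythroid markers summed to 571 to 1592 in control and 2450 to 4046 in CD70Tg Tregs, and the 7 dendritic cell markers to 337 to 708 and 1664 to 1863. H2-Aa made up most of the dendritic cell sums, at 238 and 552 in control and 1254 and 1485 in CD70Tg Tregs. Zbtb46 was 25 and 27 in control and 209 and 191 in CD70Tg Tregs. Itgax values overlapped between these groups, and Flt3, Xcr1, Clec9a and Siglech were too low to test. The 5 granulocyte markers summed to 10 to 32 and 209 to 243, and the 2 CD8 markers to 317 to 417 and 631 to 660. In Tconvs, the CD8 markers summed to 681 to 720 in control and 1563 to 1590 in CD70Tg libraries, while the erythroid sums overlapped (874 to 1520 and 948 to 994). The 7 macrophage and monocyte markers summed to 2799 to 2855 in control and 2809 to 3023 in CD70Tg Tregs, and the 7 B cell markers to 405 to 520 and 525 to 526. Single macrophage and monocyte markers went both ways in Tregs. Itgam was 146 and 198 in control and 377 and 381 in CD70Tg Tregs, and Csf1r 1500 and 1205 against 930 and 762. Lyz2 and Cd68 were also higher with the transgene in Tregs, and Adgre1 was lower. The 5 plasma cell markers, of which Xbp1 and Prdm1 made up most, summed to 3787 to 3876 in control and 4422 to 4705 in CD70Tg Tregs, and to 1831 to 1835 and 2451 to 2907 in Tconvs. The 6 NK cell markers summed to 138 to 167 in control and 1562 to 1673 in CD70Tg Tregs, and to 926 to 932 and 3243 to 4271 in Tconvs. Among them Eomes and Gzma, which T cells can also express, rose in both subsets and Klrb1c fell in both, while Ncr1 and Klra8 were at 0 in all 4 Treg libraries.

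Per kb of exons, Slc3a2 and Slc1a5 had the highest mean levels of the 9 genes in every group. In control Tconvs the mean level per 20 M reads per kb was 754 ± 75.7 (SD, n = 2) for Slc3a2, 445 ± 3.73 for Slc1a5, 433 ± 98.0 for Slc7a5 and 337 ± 73.6 for Slc38a2. Slc38a1 (198), Slc7a1 (181) and Slc7a6 (171) followed on the same scale. The ranges of the 2 libraries overlapped between Slc1a5 and Slc7a5, between Slc7a5 and Slc38a2, and among Slc38a1, Slc7a1 and Slc7a6, so these neighbours were not separated. In control Tregs, Slc1a5 (813 ± 170) came before Slc3a2 (719 ± 54.9), with overlapping ranges. Slc38a2 (336) and Slc7a5 (307) came next and overlapped as well. Slc7a6 (192), Slc38a1 (186) and Slc7a1 (124) were lower, and Slc7a10 (57.1 ± 4.36) lower again. In CD70Tg Tregs the order was the same, and the range of Slc1a5 (974 to 993) lay wholly above that of Slc3a2 (687 to 714). Lengths are those of all annotated exons together, up to 17.24 kb for Slc38a1, and a gene whose long exons are little used in these cells is understated by this scale.

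**Figure D1:**
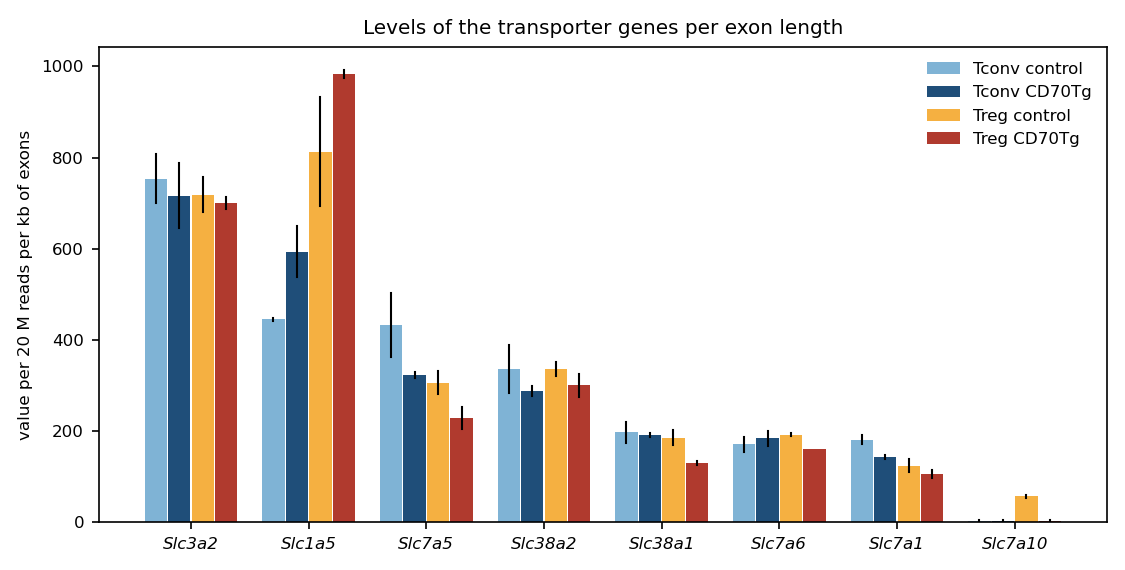
Mean level of each transporter gene per 20 M reads and per kb of annotated exons (y axis) in the 4 groups, with a line from the lower to the higher of the 2 libraries. Slc1a5 stands below Slc3a2 in both Tconv groups and above it in both Treg groups, and Slc7a10 is above 50 only in control Tregs. Slc7a11, at 0.29 or less in every group, is not drawn.

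Between the subsets in control mice, 2 of the 8 genes tested were higher in Tregs (Slc7a10 and Slc1a5) and 2 were lower (Slc7a1 and Slc7a5), where 27.5% of all genes tested were higher and 18.4% lower at an adjusted p-value under 0.05 in limma. Slc7a10 reached the minimum value for testing through Tregs alone, and the genes were chosen with these values known, so nothing is read from these counts. The median log2 fold change of the 8 genes was -0.03, against 0.07 over all genes tested. All log2 fold changes here are of the value plus 5, which understates changes of genes with low values.

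Under the transgene, 2 of the 8 genes were lower in Tregs (Slc7a10 and Slc38a1) and 0 were higher, where 3.46% of all genes tested were lower and 3.94% higher. With the further requirement of a log2 fold change beyond 1 in size, Slc7a10 alone remained, against 1.08% of all genes lower and 2.53% higher. In Tconvs, 0 of the 8 passed in limma, where 6.82% of all genes were higher and 1.99% lower, or 4.07% and 0.577% with the requirement on the fold. Of these 8, Slc7a1, Slc7a5 and Slc1a5 had an unadjusted p-value under 0.05 in Tconvs, and limma on recovered reads (voom) called Slc1a5. The effect of the transgene differed between the subsets for 0 of the 8, where 0.195% of all genes had a higher and 0.827% a lower effect in Tregs. At an unadjusted p-value under 0.05, Slc7a10 and Slc38a1 differed, and voom called 0. The median log2 fold change of the 8 genes was -0.24 in Tregs and -0.11 in Tconvs, against -0.05 and 0.01 over all genes tested.

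**Figure D2:**
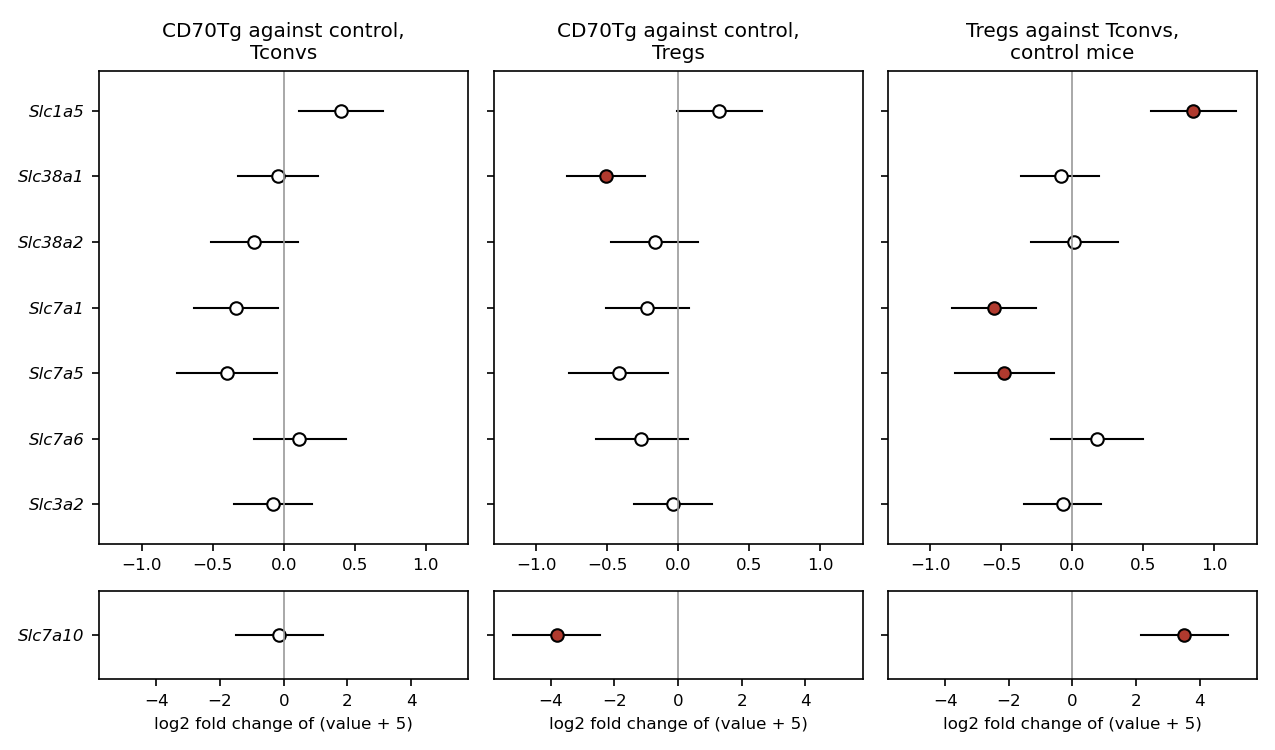
Log2 fold change of the value plus 5 (x axis) for the 8 genes tested, with its 95% confidence interval from limma, for the transgene in Tconvs, the transgene in Tregs, and Tregs against Tconvs in control mice. Filled points have an adjusted p-value under 0.05. Slc7a10 has an axis of its own, with -3.81 under the transgene in Tregs and 3.52 between the subsets. The right panel shares its control libraries with the other panels.

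Slc7a10 (Asc-1) carries small neutral amino acids such as serine, alanine, glycine and cysteine, and is best known from brain and fat. It lies at chr7:35186385-35201114 on the plus strand of GRCm38. In control Tregs its value was 127 and 114, from 26 reads in each library. In CD70Tg Tregs it was 11 and 0, from 1 read and 0 reads, both under the floors of 31.3 and 16.3. The groups did not overlap. The gene reached the minimum value for testing through the control Tregs alone, and so could be tested only because they were high. Summed over libraries, there were 52 reads among 8.69 M in control and 1 among 5.59 M in CD70Tg Tregs, a ratio of 33.4 with an exact 95% interval of 5.74 to 1350 that covers counting error only. The log2 fold change was -3.81 ± 0.65 (SE), and the adjusted p-value in limma was 0.0017. It was 0.054 when no minimum value was set. The size of the fold change depends on the pseudocount (-5.13 with 1 and -2.50 with 20) and on single CD70Tg Treg libraries (-4.65 without the first and -2.97 without the second), with adjusted p-values in limma of 0.013, 0.00014, 0.0012 and 0.015. On simulated counts of this depth, false calls in Tregs were more frequent than the threshold allows, which bears on every adjusted p-value in Tregs here.

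In Tconvs Slc7a10 was near the floor in both groups, at 10 and 3 in control and 9 and 2 in CD70Tg libraries. Summed over libraries there were 10 reads among 29.08 M in control and 6 among 40.25 M in CD70Tg Tconvs, a ratio of 2.31. Its exact 95% interval, for counting error only, was 0.76 to 7.72, which overlaps the interval in Tregs. In the fit the log2 fold change in Tconvs was -0.15 ± 0.65 (adjusted p-value in limma 0.95). Its sign turned without the first control (0.31) or the second CD70Tg (0.35) Tconv library. The difference between the subsets was -3.66 ± 0.91 on the log2 scale, with an adjusted p-value of 0.077 in limma. It passed without the first CD70Tg Treg library (-4.50, adjusted p-value in limma 0.031) and with a pseudocount of 20 (-2.44, 0.015). The higher level in control Tregs than in control Tconvs was 3.52 ± 0.65 on the log2 scale (adjusted p-value in limma 0.00035). It lay between 2.42 and 4.29 under the 16 alternatives that could test it. Slc7a10 could be tested only because control Tregs were high, so neither this call nor its repeats are support for the difference. In bulk samples, fewer cells with a transcript and less transcript per cell cannot be told apart.

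Of the exons of Slc7a10, 377 bases (17.9%) overlap Lrp3 on the opposite strand, and the strand setting of the counting is not given in the sources used here, so reads from this stretch cannot be assigned to either gene. Lrp3 was 39 and 40 in control Tregs and 21 and 0 in CD70Tg Tregs, and 0 to 7 in Tconvs. Both genes were thus highest in control Tregs, and the share of the overlap in either value was not tested.

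**Figure D3:**
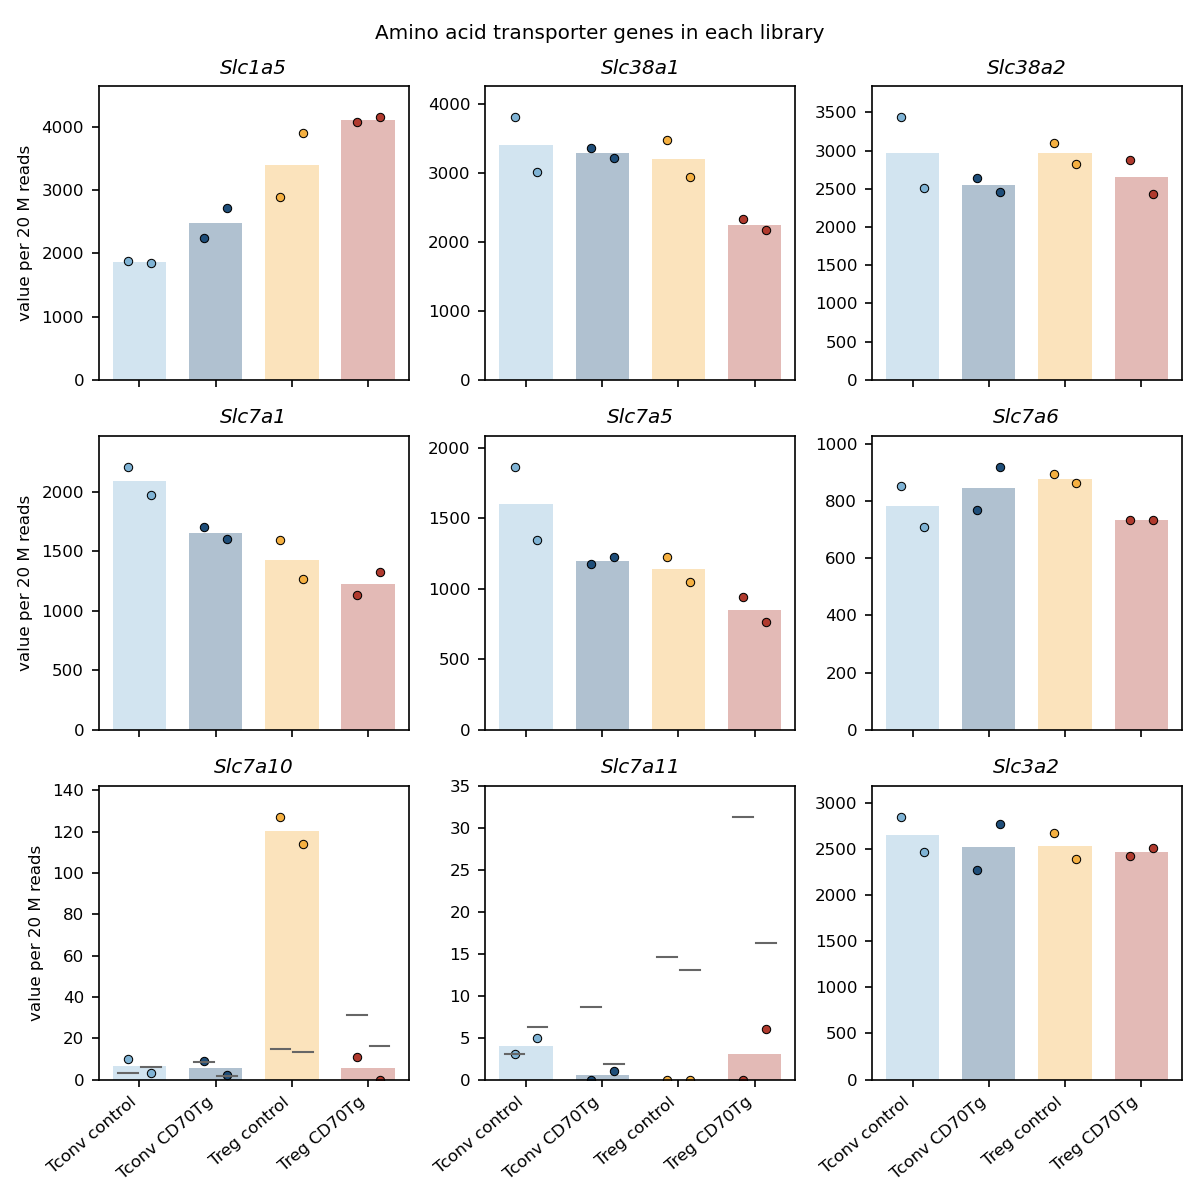
Value per 20 M reads (y axis, starting at 0 in each panel) of the 9 transporter genes in the 8 libraries. Points are libraries, bars are means of 2 libraries, and grey dashes in the panels of Slc7a10 and Slc7a11 mark the value worth 3 reads in each library. Slc7a10 stands out in control Tregs at 127 and 114, Slc1a5 is lowest in control Tconvs and highest in CD70Tg Tregs, and Slc38a1 is lowest in CD70Tg Tregs.

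Slc7a11 (xCT) exchanges cystine for glutamate and feeds the synthesis of glutathione. Its value was 3 and 5 in control Tconvs, 0 and 1 in CD70Tg Tconvs, 0 and 0 in control Tregs, and 0 and 6 in CD70Tg Tregs. Each value was at or under the value worth 3 reads of its library, and the gene was not tested. Expression of Slc7a11 was therefore not detectable at this depth in either subset, and no comparison can be drawn from it.

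The promoter of Slc7a11 is shown because it is the only one among the windows of 6 of the 9 genes (RefSeq, GRCm38.p6) that holds the amino acid response element to which ATF4 binds, searched as TGATGNAA on both strands. It has this element at 66 and, on the opposite strand, at 47 bases before the start site. The element was found in 3.97% of all 32851 windows of 250 bases before and 50 bases after a start. The E-box CACGTG, bound by MYC, was found in 7.15% of all windows and in 0 of the 8 windows of these genes. No window was matched for Slc1a5, Slc7a5 and Slc38a1. The promoter of Slc7a10 is shown beside it, chosen after its values were seen, as that of the gene with the largest difference under the transgene. The stretches are the 120 bases before the start, chr3:50443614-50443733 on the minus strand and chr7:35186265-35186384 on the plus strand, with matches to the element in capitals.
Slc7a11: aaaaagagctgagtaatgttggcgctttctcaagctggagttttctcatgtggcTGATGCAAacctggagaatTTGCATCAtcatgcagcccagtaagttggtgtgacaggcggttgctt
Slc7a10: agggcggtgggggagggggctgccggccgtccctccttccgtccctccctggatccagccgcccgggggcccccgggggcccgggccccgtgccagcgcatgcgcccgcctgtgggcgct
The 250 bases before the start held 43.2% G and C in Slc7a11 and 69.6% in Slc7a10, against a median of 52.4% (quartiles 45.2 and 61.2) over all windows. These letters are a description and show neither binding nor its absence.

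Slc7a5 (LAT1) brings in leucine and other large neutral amino acids in exchange for glutamine, and T cells depend on it for growth after activation. It lies at chr8:121881150-121907694 on the minus strand. Its value was 1862 and 1348 in control Tconvs and 1176 and 1225 in CD70Tg Tconvs, and 1228 and 1047 in control Tregs and 941 and 762 in CD70Tg Tregs. In both subsets the CD70Tg libraries lay below both control libraries. The log2 fold change was -0.42 ± 0.16 (SE) in Tregs and -0.40 ± 0.16 in Tconvs, with adjusted p-values in limma of 0.14 and 0.18, and these did not pass. Without the second control Tconv library it was -0.63 in Tconvs, with an adjusted p-value in limma of 0.046. In control mice Slc7a5 was lower in Tregs than in Tconvs (-0.48 ± 0.16, adjusted p-value in limma 0.025). This was lost without the first control Tconv library (-0.25, adjusted p-value in limma 0.31) and without the second control Treg library (-0.37, 0.20), and the adjusted p-value was 0.11 with no minimum value.

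Slc3a2, the heavy chain on which Slc7a5 relies, stayed within a narrow range. It was 2850 and 2472 in control and 2279 and 2781 in CD70Tg Tconvs, and 2674 and 2400 in control and 2425 and 2518 in CD70Tg Tregs. The ranges of all 4 groups overlapped. The 95% interval of the log2 fold change was -0.31 to 0.24 in Tregs and -0.35 to 0.20 in Tconvs, with adjusted p-values in limma of 0.91 and 0.83. Slc3a2 lies at chr19:8706882-8723369 on the minus strand.

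Slc7a6 (y+LAT2) exports arginine in return for neutral amino acids and also pairs with Slc3a2. Its value was 853 and 710 in control and 770 and 918 in CD70Tg Tconvs, which overlapped, and 893 and 863 in control and 732 and 735 in CD70Tg Tregs, which did not. In Tregs this gave -0.26 ± 0.15 on the log2 scale (adjusted p-value in limma 0.36). For Tconvs it was 0.11 (adjusted p-value in limma 0.80).

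Slc7a1 (CAT-1) imports arginine and lysine on its own, with no heavy chain. It lies at chr5:148327410-148399904 on the minus strand. Its value was 2204 and 1974 in control and 1703 and 1605 in CD70Tg Tconvs, and 1592 and 1266 in control and 1129 and 1322 in CD70Tg Tregs. The Tconv groups did not overlap, and the Treg groups did. Under the transgene its log2 fold change was -0.33 ± 0.14 in Tconvs and -0.22 ± 0.14 in Tregs, with adjusted p-values in limma of 0.19 and 0.41. Between the subsets in control mice Slc7a1 was lower in Tregs (-0.55 ± 0.14, adjusted p-value in limma 0.0043), which was lost without the second control Treg library (-0.39, 0.10).

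Slc1a5 (ASCT2) exchanges small neutral amino acids and is a main route for glutamine into activated T cells. It lies at chr7:16781340-16798274 on the plus strand. Its value was 1870 and 1848 in control and 2242 and 2709 in CD70Tg Tconvs, and 2892 and 3893 in control and 4065 and 4144 in CD70Tg Tregs. No group overlapped with another, and the order ran from control Tconvs through CD70Tg Tconvs and control Tregs to CD70Tg Tregs. The higher level in control Tregs than in control Tconvs passed the test (0.85 ± 0.14, a ratio of 1.80, adjusted p-value in limma 0.00013) and passed under every alternative tried. The log2 fold change under the transgene was 0.41 ± 0.14 in Tconvs and 0.29 ± 0.14 in Tregs, with adjusted p-values in limma of 0.09 and 0.24. In Tconvs it passed without the first CD70Tg library (0.54, adjusted p-value in limma 0.031) and with voom (0.43, 0.04).

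Slc38a1 (SNAT1) and Slc38a2 (SNAT2) draw in glutamine, alanine and other neutral amino acids along with sodium. They lie next to each other on chromosome 15, at chr15:96571418-96642913 and chr15:96687392-96699730, both on the minus strand and 44.5 kb apart. Slc38a1 was 3807 and 3016 in control and 3371 and 3222 in CD70Tg Tconvs, and 3475 and 2943 in control and 2330 and 2175 in CD70Tg Tregs. The Treg groups did not overlap, and CD70Tg Tregs were below all other libraries. In Tregs this amounted to -0.51 ± 0.13 on the log2 scale, a ratio of 0.704 (adjusted p-value in limma 0.026). It was lost without the first control Treg library (-0.39, adjusted p-value in limma 0.32), without the first (-0.56, 0.096) or second (-0.46, 0.16) CD70Tg Treg library, with no minimum value (0.12) and with voom (0.14). In Tconvs the log2 fold change was -0.04 ± 0.13, and the difference between the subsets was -0.47 ± 0.19 with an adjusted p-value in limma of 0.35.

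Slc38a2, whose RNA is known to increase when amino acids run short, gave no call in any comparison. It was 3434 and 2514 in control and 2640 and 2455 in CD70Tg Tconvs, and 3106 and 2829 in control and 2884 and 2431 in CD70Tg Tregs. The groups overlapped within each subset. Its log2 fold change was -0.16 in Tregs and -0.21 in Tconvs, with 95% intervals of -0.47 to 0.14 and -0.51 to 0.10. The difference between this gene and its neighbour Slc38a1 was not tested.

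The values of all 9 genes together summed to 13890 to 16893 in control and 14190 to 14918 in CD70Tg Tconvs, which overlapped. In Tregs the sum was 15355 to 15987 in control and 14093 to 14517 in CD70Tg libraries. Across the 8 libraries, Slc7a1 went along with Slc7a5 (Pearson's r = 0.87 on log2 values) and against Slc1a5 (r = -0.96), and Slc7a5 with Slc38a1 (r = 0.89). Slc7a5 and its partner Slc3a2 had r = 0.53. These are descriptions over 4 groups of 2 libraries, which share subset and genotype. Among all other genes tested, the pattern most like Slc7a1 was that of the lactate carrier Slc16a1 (r = 0.99, n = 8 libraries), and the one most like Slc1a5 was that of Mtmr11 (r = 0.99), followed by Prkcd. Csnk1g1 (r = 0.99) and Ago1 (0.97) came nearest to Slc7a10, Ipo5 (0.98) and Nup205 (0.98) to Slc38a1, Trav14d-3-dv8, Zfp422 and Ifrd2 (each 0.98) to Slc7a5, Ccpg1os (0.97) to Slc7a6, 2810425M01Rik (0.96) to Slc3a2, and Emc1 (0.96) to Slc38a2.

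Of 43 other amino acid transporter genes, 18 had enough signal to test. Under the transgene 2 rose and 1 fell in Tregs, and 1 rose in Tconvs, counts that, like those of the lists that follow, stand beside the shares of all genes given above for each comparison. Slc15a3, which moves histidine and small peptides out of endosomes and lysosomes, rose in both. It was 161 and 158 in control and 512 and 555 in CD70Tg Tregs, and 29 and 34 in control and 142 and 214 in CD70Tg Tconvs, so neither pair of groups overlapped. The log2 fold changes were 1.71 ± 0.28 and 2.30 ± 0.28 (adjusted p-values in limma 0.0012 and 3.2e-05). Slc15a3 is also active in macrophages and dendritic cells. The dendritic cell marker sums given above, made up mostly of H2-Aa, were higher with the transgene in Tregs. In Tconvs those sums overlapped (335 to 687 in control and 616 to 1323 in CD70Tg libraries). The 7 macrophage and monocyte markers summed to 1527 to 1550 in control and 1138 to 1466 in CD70Tg Tconvs. Single markers went both ways there. Itgax was 31 and 57 in control and 101 and 236 in CD70Tg Tconvs (1.76 ± 0.43, adjusted p-value in limma 0.015), and Cd68 was 79 and 51 in control and 245 and 306 in CD70Tg Tconvs (2.02 ± 0.28, 0.00011), whereas Itgam fell (-0.96 ± 0.26, adjusted p-value in limma 0.027), and Lyz2 (-0.61) and Csf1r (-0.33) did not pass. Their part in the values of Slc15a3 was not tested.

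Slc7a8 (LAT2), another light chain for neutral amino acids, had a course like that of Slc7a10, with 78 and 79 in control and 11 and 17 in CD70Tg Tregs. It was 16 and 28 in control and 15 and 13 in CD70Tg Tconvs, and like Slc7a10 it reached the minimum through control Tregs alone. The log2 fold change in Tregs was -2.15 ± 0.47 (adjusted p-value in limma 0.010). Slc1a1, a glutamate and cysteine carrier, went the other way in Tregs, from 10 and 22 in control to 95 and 207 in CD70Tg libraries (2.86 ± 0.61, adjusted p-value in limma 0.0090). It reached the minimum through CD70Tg Tregs alone, and so could be tested only because they were high. In Tconvs Slc1a1 was at 0 in both control libraries and at 0 and 6 in CD70Tg libraries.

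**Figure D4:**
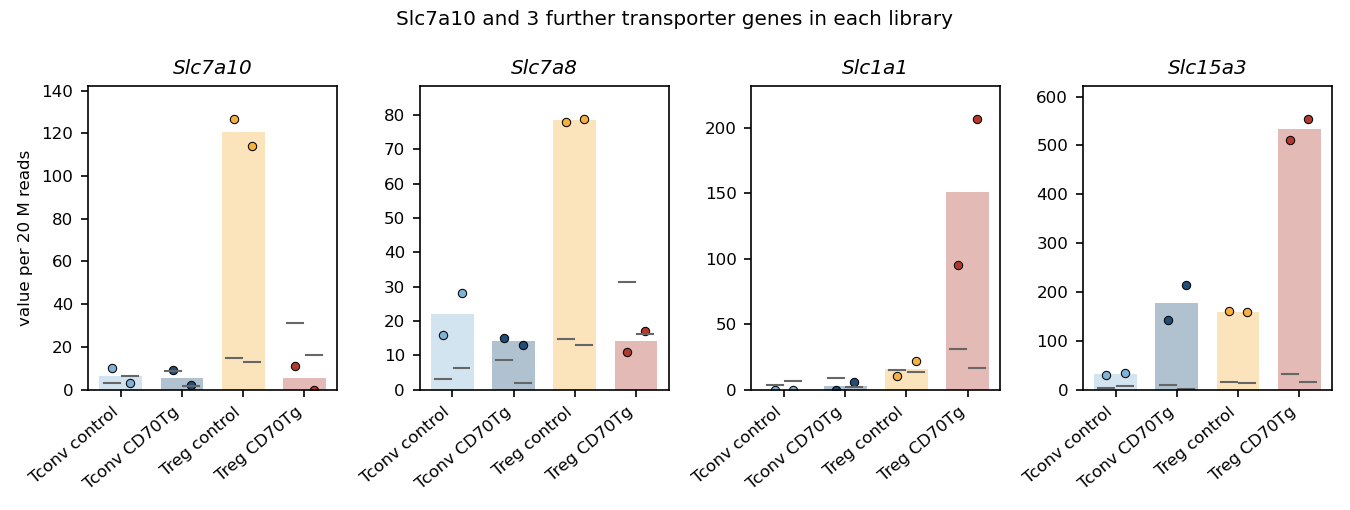
Value per 20 M reads (y axis, from 0) of Slc7a10 and of the 3 genes among the 18 further transporters tested that passed in Tregs under the transgene, in the 8 libraries. Points are libraries, bars are means of 2 libraries, and grey dashes mark the value worth 3 reads. In CD70Tg Tregs Slc7a10 and Slc7a8 are close to or under the dashes, whereas Slc1a1 and Slc15a3 are above their control libraries.

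Between the subsets in control mice, 11 of these 18 genes (61.1%) were higher and 1 (5.56%) was lower in Tregs, beside 27.5% and 18.4% of all genes tested. Of the 11, 3 (Slc7a7, Slc7a8 and Slc1a1) reached the minimum value only with the help of Treg libraries, the side on which they were high, so the share of 61.1% cannot be read against the background. Slc43a1, which carries large neutral amino acids, was 481 and 539 in Tregs and 117 and 49 in Tconvs (log2 fold change 2.66 ± 0.30, adjusted p-value in limma 2.8e-06). Slc15a3 (2.18 ± 0.28, adjusted p-value in limma 1.2e-05) and Slc7a7, the second light chain for arginine export (1.83 ± 0.40, 0.0016), were higher too. Slc1a1 is counted among the 11, but its 10 and 22 in Tregs came from 2 and 5 reads, the first under the value worth 3 reads, against 0 in both Tconv libraries, so that its level cannot be compared at this depth. Slc16a10, which carries aromatic amino acids, was lower in Tregs (-1.19 ± 0.30, adjusted p-value in limma 0.0043).

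Among 34 genes by which mTORC1 senses amino acids, 32 were tested, and 0 rose and 2 fell in Tregs under the transgene. These were Fnip1 (-0.68 ± 0.19, adjusted p-value in limma 0.036), a partner of folliculin at the lysosome, and Sesn3 (-0.43 ± 0.11, 0.030), a sestrin that restrains mTORC1. In Tconvs 0 rose and 1 fell, the leucine sensor family member Sesn1 (-0.83 ± 0.18, adjusted p-value in limma 0.0066). In Tregs Sesn1 was at -0.54 ± 0.18 and did not pass (adjusted p-value in limma 0.083). Between the subsets 8 (25%) were higher and 4 (12.5%) lower in control Tregs, no more than the 27.5% and 18.4% of all genes tested. Those higher were led by the GTPase Rragd (3.26 ± 0.24, adjusted p-value in limma 2.2e-08), followed by Fnip2 (1.27), which reached the minimum value through Treg libraries alone, Sesn2 (0.96) and Mtor (0.91), and those lower were Lamtor2 (-0.75), Lamtor1 (-0.61), Sec13 (-0.59) and Seh1l (-0.42).

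Of 20 genes for ATF4 and the amino acid response, 14 were tested, and 1 fell in Tregs and 2 fell in Tconvs under the transgene. Asns, which makes asparagine, was 256 and 203 in control and 44 and 92 in CD70Tg Tconvs (-1.76 ± 0.34, adjusted p-value in limma 0.0026). In Tregs Asns was 204 and 198 in control and 126 and 82 in CD70Tg libraries, which did not pass (-0.95 ± 0.34, 0.11). Ddit4, an mTORC1 inhibitor that stress and glucocorticoids also induce, fell in both subsets, with a log2 fold change of -1.41 ± 0.17 in Tconvs and -1.11 ± 0.17 in Tregs (adjusted p-values in limma 3.1e-05 and 7e-04). Between the subsets, where 27.5% of all genes tested were higher and 18.4% lower, 1 of the 14 (7.14%) was higher in control Tregs, the amino acid sensing kinase Eif2ak4 (0.70), and 3 (21.4%) were lower, namely Trib3 (-1.01), Ddit4 (-0.72) and Psph (-0.60).

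Of 26 genes for enzymes that use amino acids, 19 were tested. Odc1, the first step of polyamine synthesis from ornithine, rose in both subsets, by a log2 fold change of 1.31 ± 0.18 in Tregs (adjusted p-value in limma 0.00027) and 0.64 ± 0.18 in Tconvs (0.036). It was the only gene of this list to pass in Tregs. In Tconvs the spermidine synthase Srm (-0.65) and the branched-chain aminotransferase Bcat2 (-0.64) fell. In Tregs Srm (-0.48) and Bcat2 (-0.45) did not pass, with adjusted p-values in limma of 0.083 and 0.077. Of 20 cytosolic aminoacyl-tRNA synthetase genes, 19 were tested, and 1 rose in Tregs and 2 in Tconvs. Wars, for tryptophan, which interferon also induces, rose by 1.23 ± 0.15 in Tregs and 0.64 ± 0.15 in Tconvs (adjusted p-values in limma 7.6e-05 and 0.0094), and Vars, for valine, by 0.61 in Tconvs. Between the subsets, 4 of the enzymes (21.1%, 1 of them reaching the minimum only with Treg libraries) were higher and 6 (31.6%) lower in control Tregs, and 1 of the synthetases (5.26%) was higher and 5 (26.3%) lower, beside 27.5% and 18.4% of all genes tested.

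Of 9 regulators of amino acid uptake, 8 were tested. Myc, which drives Slc7a5 and Slc1a5 in activated T cells, fell in both subsets under the transgene, with a log2 fold change of -0.45 ± 0.12 in Tregs and -0.51 ± 0.12 in Tconvs (adjusted p-values in limma 0.025 and 0.0084). Its value was 3008 to 3247 in control and 2181 to 2383 in CD70Tg Tregs, and 2030 to 2181 in control and 1473 in both CD70Tg Tconv libraries. Max, the partner of MYC, fell in Tregs (-0.37, adjusted p-value in limma 0.048), just under a threshold where Treg values may be too small. In Tconvs Max was at -0.33 and did not pass (adjusted p-value in limma 0.071), and Hif1a rose (0.63, 0.020). Between the subsets 3 of the 8 (37.5%) were higher in control Tregs, Hif1a (1.47), Mxd4 (1.1) and Myc (0.57), and 1, Nfe2l2, was lower (-1.95). Among 15 genes of activation and division, 0 passed as higher and 2 as lower in Tregs (Cd69 -0.56 and Cd44 -0.44). In Tconvs 6 passed as higher, led by Cdk1 (1.61), Birc5 (1.51), Ccnb1 (1.5) and Mki67 (1.43), and Cd69 as lower (-0.89). In Tregs, Cdk1 (0.46), Birc5 (0.81), Ccnb1 (0.425) and Mki67 (0.735) also had positive log2 fold changes, which did not pass. Mki67 was 1757 and 2045 in control and 3020 and 3301 in CD70Tg Tregs. The median log2 fold change of the 15 genes was -0.09 in Tregs and 0.45 in Tconvs. The effect of the transgene did not pass the test of a difference between the subsets for any of the genes in these 7 lists. Between the subsets in control mice, 10 of these 15 (66.7%) were higher in Tregs and 3 (20%) lower, again beside 27.5% and 18.4% of all genes tested.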

How the data were processed

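The authors trimmed reads with Trimmomatic 0.36, aligned them to mm10 with STAR 2.5.3 and counted them per gene with HTSeq 0.9.1, and deposited score values, which are the counts scaled to 20 M per library and rounded up. The table's KO columns are read here as the CD27+/- control groups, WT in the sample labels. The reads behind a value were recovered from the step between low values, and 1 of the 8 steps is under 1, so that its depth is less certain. Rows named after genomic clones (4131) were dropped, since the step of their values is that of a different library. For 97 names on several rows, the row with the largest total held the name. Genes reaching 60 in 2 or more libraries were tested with limma 3.58.1 (R 4.3.3) on log2(value + 5), with 4 group coefficients, a trended prior variance and Benjamini-Hochberg adjustment over all 12816 genes. The procedure was tested on simulated data, where false calls stayed within the threshold in Tconvs but exceeded it in Tregs, so that adjusted p-values just under 0.05 in Tregs may be too small. All groups share 1 estimate of the spread, and the Treg libraries are shallower. Positions and exon lengths came from GENCODE M21 (GRCm38), promoters from RefSeq. All 9 transporters were described, and from each other list at most 4 genes a direction, those with the largest change that passed. The genes and lists were chosen with earlier results of these data known.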

Additional observations from a re-analysis of the deposited data

How the results depend on the processing

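Of the values for single transporters under the alternatives, 517 kept their side of the threshold, 10 lost the call and 5 gained it. Of the 517, 482 kept their direction and 35 changed sign, all of which passed in neither fit, and 0 called values turned direction. The lost and gained calls are those of Slc7a10, Slc38a1, Slc7a1, Slc7a5 and Slc1a5 given in the report, and their causes were not tested. In Tregs, the count of transporters that fell went from 2 to 0 with no minimum value, and to 1 with a value above 10 in every library (which leaves Slc7a10 untested) or with voom, and lay between 1 and 2 when single libraries were left out. In Tconvs, it was 1 higher with voom, and 0 to 1 higher and 0 to 1 lower without single libraries. The difference between the subsets gave 1 with a pseudocount of 20 and 0 to 1 without single libraries. Between the subsets of control mice, 1 was higher with a value above 10 in every library, 1 was lower with no minimum value, and 0 to 2 were lower without single libraries. Over all genes tested, the calls in Tregs moved from 948 to 261 with no minimum value, 1615 with the Treg libraries alone and 258 with voom, and to 300 (without the first control Treg library) to 1286 without single libraries. In Tconvs they moved from 1129 to 365 with no minimum value, 2003 with voom, and 524 (without the second CD70Tg Tconv library) to 1554 without single libraries. For the difference between the subsets they moved from 131 to 0 with no minimum value and 63 with voom, and 62 (without the first CD70Tg Treg library) to 269 (without the first CD70Tg Tconv library), and between the subsets of control mice 3700 (without the second control Treg library) to 6316 without single libraries.

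The Treg libraries are shallow, so that values under about 31.3 in the shallowest cannot be told from 0. Fits without a library leave a group with 1 sample, which is taken to vary like the other groups. No paired analysis was possible because the replicate numbers in the sample titles are not on the table's columns.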
